A study of Mus musculus with 12 samples.

Results

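The genes described here encode the nuclear subunits of the mitochondrial respiratory chain and of the ATP synthase. Their symbols were matched by name: Nduf genes of the A, B, C, S and V series for complex I, Sdha to Sdhd for complex II, Uqcr genes for complex III, Cox4 to Cox8 genes for complex IV, and Atp5 genes for the ATP synthase. A gene was kept when it had at least 10 fragments in each of the 12 libraries. Of 24318 genes in the table, 83 matched by name and 75 were kept: 35 of complex I, 4 of complex II, 8 of complex III, 11 of complex IV and 17 of the ATP synthase. All 75 passed the filter on low counts of the test across all genes.

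Poly(A) RNA was sequenced from an immortalised line of mouse embryonic fibroblasts without any of the 3 small Maf proteins (MafF-/-::MafG-/-::MafK-/-). All 4 groups carry this triple deletion, so none of them is a wild-type control. Mock cells were compared with cells that express T-N2G, a tethered Nrf2-MafG heterodimer (written T-NG2 in the genotype field of the labels). Diethyl maleate (DEM), which depletes glutathione, was given to each population at 100 µM for 12 h, with vehicle as the control. There are thus 4 groups of 3 libraries: mock cells with vehicle or DEM, and T-N2G cells with vehicle or DEM. The promoter that drives T-N2G, whether a population is 1 clone, and whether replicates are separate cultures are not given in the sources used here, so the p-values measure the spread between these libraries, which may be technical.

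Complexes I and II take electrons from NADH and succinate and hand them to ubiquinone, complex III passes them to cytochrome c, and complex IV reduces oxygen with them. Complexes I, III and IV pump protons across the inner mitochondrial membrane, and the ATP synthase makes ATP as the protons flow back. Most subunits are encoded in the nucleus, and some of complexes I, III and IV and of the ATP synthase in mitochondrial DNA. The mitochondrially encoded genes were not analysed here. Binding sites for Nrf1 (nuclear respiratory factor 1, a different protein from Nrf2), for the ETS factor Gabpa and for Yy1 are known in the promoters of many nuclear subunit genes.

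Library totals ranged from 18863560 to 23095692 fragments. Every T-N2G library had more Mafg and more Nfe2l2 (the gene of Nrf2) than every mock library, with log2 differences of 8.04 and 3.49 in vehicle and of 7.10 and 3.15 under DEM. Of 10 fibroblast markers, 9 had at least 10 fragments in every library, and Lum was near 0. Of 33 markers of other cell types, Adgre1 (macrophages), Actc1 (heart), Adipoq and Plin1 (adipocytes) and Sox2 (neural cells) were at 0 in every library, while 7 had at least 10 fragments in every library. Over the 12 libraries the summed marker level, in FPKM (fragment counts per unit of transcript length and of sequencing depth), was 14 to 23 for 4 neural markers, nearly all from Map2 and Tubb3, and 3.78 to 13.0 for 4 cardiac markers, nearly all from Tnnt2. It was 0.845 to 5.79 for 6 markers of skeletal muscle, 0.976 to 3.04 for 4 endothelial, 1.30 to 2.52 for 5 macrophage or leukocyte, 0.215 to 1.30 for 5 adipocyte and 0.136 to 0.541 for 5 epithelial markers, against 3083 to 4254 for the fibroblast markers.

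Promoter windows of 300 bases, 250 before and 50 after the annotated start, were found in RefSeq (GRCm38.p6) for 64 of the 75 genes, 3 of them through an older symbol. A form of the Nrf1 consensus site was in a window of 25.0% of these 64 genes and of 5.19% of all 27025 genes in the table of windows. The letters CCGGAAG, the core bound by ETS factors such as Gabpa, were in 25.0% against 9.93%, and AAGATGG, the core of the Yy1 site, in 18.8% against 7.28%. TGACNNNGC, the core of the antioxidant response element that Nrf2 and small Maf proteins bind together, was in 12.5% against 14.0%. Both strands were searched, and a gene was counted for each motif it held, whether or not it held another. The letters of the Nrf1, ETS and Yy1 sites were thus in a larger share of these genes than of all genes, and those of the antioxidant response element were not. All genes here are those with a window, not only the 12469 tested, and they were not matched for level or base content. Whether other genes of like level hold these letters as often was not tested. Over windows in place of genes the 4 shares were 24.3, 22.9, 18.6 and 12.9%, against 4.60, 8.86, 6.34 and 12.4% of all windows. A match of letters describes the sequence only. The windows of Uqcrc1 (chr9:108936398-108936697, plus strand), Cox8a (chr19:7217567-7217866, minus strand) and Ndufa5 (chr6:24527477-24527776, minus strand, 1 of 2 windows of the gene) are shown because these genes were lower under DEM in both populations and hold a searched motif, set in capitals. Each is written from 5′ to 3′ along the gene's strand.
Uqcrc1: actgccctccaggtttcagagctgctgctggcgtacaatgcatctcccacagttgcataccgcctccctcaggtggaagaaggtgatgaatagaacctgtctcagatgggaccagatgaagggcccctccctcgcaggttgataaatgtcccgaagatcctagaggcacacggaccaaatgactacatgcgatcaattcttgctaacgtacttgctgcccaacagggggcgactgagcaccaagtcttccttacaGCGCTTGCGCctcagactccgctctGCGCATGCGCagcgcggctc
Cox8a: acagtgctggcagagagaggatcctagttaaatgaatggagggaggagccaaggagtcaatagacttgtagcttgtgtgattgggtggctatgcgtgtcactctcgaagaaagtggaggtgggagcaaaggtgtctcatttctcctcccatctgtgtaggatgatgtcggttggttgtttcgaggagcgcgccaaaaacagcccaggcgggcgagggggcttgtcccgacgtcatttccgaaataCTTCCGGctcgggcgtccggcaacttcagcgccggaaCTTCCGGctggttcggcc
Ndufa5: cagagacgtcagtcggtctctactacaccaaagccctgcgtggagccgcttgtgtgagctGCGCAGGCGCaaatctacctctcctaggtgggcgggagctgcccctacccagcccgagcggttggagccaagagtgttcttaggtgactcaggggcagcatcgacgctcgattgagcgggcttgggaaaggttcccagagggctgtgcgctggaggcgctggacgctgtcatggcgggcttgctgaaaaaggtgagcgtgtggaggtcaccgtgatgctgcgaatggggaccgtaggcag
Uqcrc1 holds 2 matches to the Nrf1 letters just after its start and Ndufa5 holds 1 well before it, while Cox8a holds 2 matches to the ETS letters around its start. Of the 14 genes called lower under DEM below, 11 had a window, and of these 3 held the Nrf1 letters, 2 the ETS letters, 3 the Yy1 letters and 2 the antioxidant response element core. Among the other 53 genes with a window these counts were 13, 14, 9 and 6.

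The genes spanned a wide range of levels. Per length, the mean over the 12 libraries ran from 9.39 FPKM for Ndufs4, an accessory subunit, to 369 for Ndufa4 among the 35 genes counted with complex I, with a median of 83.1. Ndufa4 is counted there by its symbol, although its protein is now placed in complex IV. The complex II genes lay close together, from 55.0 FPKM for Sdhc, a membrane anchor, to 86.6 for Sdhb, the iron-sulfur subunit. Complex III ran from 49.8 for Uqcrfs1, the Rieske iron-sulfur protein, to 255 for Uqcrq (median 143), and complex IV from 26.2 for Cox7c to 514 for Cox6a1 (median 178). The ATP synthase genes had the highest median, 196, and the widest range, from 2.26 for Atp5s to 505 for Atp5k. Atp5s and Atp5sl match by name but are not structural subunits of the enzyme.

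**Figure D1:**
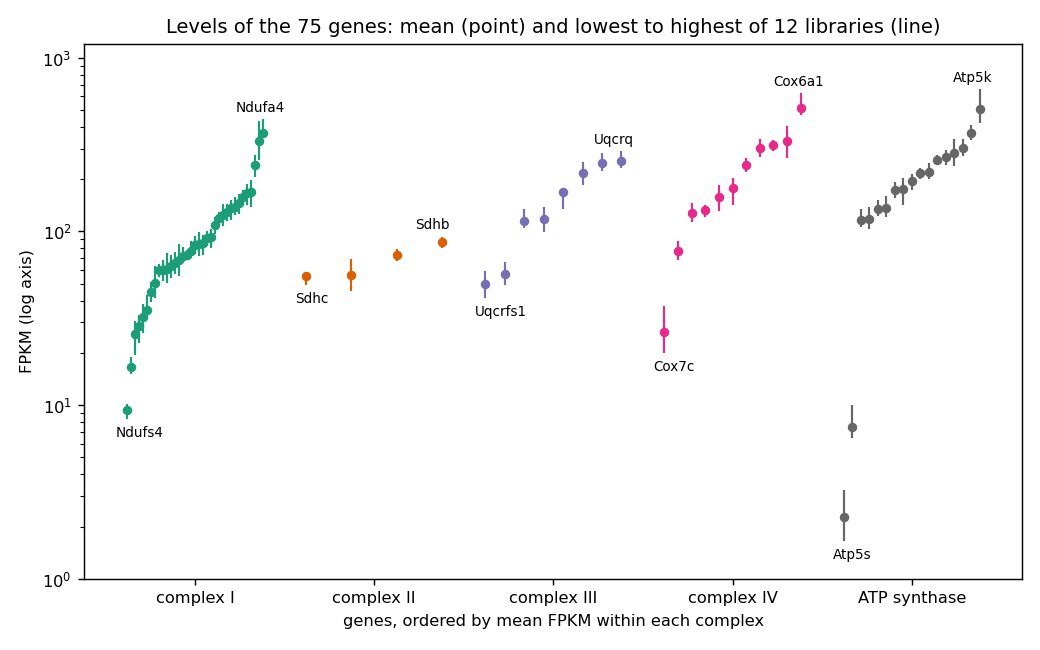
Mean FPKM of each of the 75 genes over 12 libraries (points, log axis) with the lowest and the highest library (lines), ordered by level within each complex. The genes with the highest and the lowest mean in each complex are named, from Atp5s at 2.26 to Cox6a1 at 514 FPKM.

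Within a gene the libraries differed little. The ratio of the highest to the lowest library was 1.12 for Ndufa6, 1.17 for Sdhb, 1.24 for Uqcrq, 1.15 for Cox5b and 1.15 for Atp5o, the smallest ratio in each complex. The largest were 1.66 for Ndufa12, 1.52 for Sdha, 1.43 for Uqcrfs1, 1.86 for Cox7c and 1.97 for Atp5s. Cox7c and Atp5s had few fragments: their lowest libraries held 90 and 43, and with Ndufc1 at 75 they were the 3 genes just inside the minimum of 10 fragments. Several short genes of this set have processed pseudogenes, and how the counting divided reads between copies is not given in the sources used here, so levels between genes are uncertain.

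The 8 genes that matched by name and fell under the minimum were Ndufs5 and 7 of complex IV: Cox4i2, Cox6a2, Cox6b2, Cox7a1, Cox7b2, Cox8b and Cox8c. Just outside were Cox6b2 with 5 to 37 fragments, a gene known from testis, and Cox6a2 with 5 to 13, the form of heart and skeletal muscle. Cox4i2 had 2.00 to 7 fragments, Cox7a1 had at most 6, Cox7b2 had at most 2, and Cox8b and Cox8c were at 0 in every library. The form that most tissues use held nearly all of the summed FPKM of its paralogue set in every library: 99.7 to 99.9% for Cox4i1, 99.7 to 99.9% for Cox6a1, 98.1 to 99.8% for Cox6b1, 99.8 to 100% for Cox7b and 100% for Cox8a. Cox7a2 held 59.7 to 66.8% of its set and Cox7a2l, which acts in the assembly of supercomplexes, 32.6 to 40.1%. Atp5g1, Atp5g2 and Atp5g3 encode the same c subunit of the ATP synthase rotor with different import sequences. All 3 were detected, at 24.6 to 28.7%, 40.0 to 46.6% and 28.2 to 34.1% of their sum. Ndufs5 went from 0.0119 to 240 fragments between the libraries of mock DEM, and its value was not whole in every library, so no level is given for it.

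DEM was followed by a small, broad decrease of these genes in mock cells. The summed FPKM of the 75 genes was 11740, 10861 and 11928 in the mock vehicle libraries and 10728, 10434 and 10756 in the mock DEM libraries. Every DEM library lay below every vehicle library, and the mean fell by 7.6%, from 11510 ± 570 to 10640 ± 178 (SD, n = 3). The 75 genes took 0.663 to 0.685% of all fragments in mock vehicle and 0.610 to 0.617% in mock DEM. Summed adipocyte marker levels were higher under DEM in mock cells, at 0.673 to 1.30 against 0.215 to 0.355 FPKM, with Adipoq and Plin1 at 0. Most of their fragments were from Fabp4, at 2 to 3 a library in mock vehicle and 6 to 12 in mock DEM. The part of adipocyte markers in the result was not tested. In bulk RNA, fewer cells with these transcripts and less RNA per cell cannot be told apart.

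Of the 75 genes, 10 were lower under DEM in mock cells (edgeR's quasi-likelihood test, adjusted p below 0.05 over 12469 genes) and none was higher. Among all tested genes 6.18% were called lower, 7.76% higher and 13.9% in either direction. The share of these genes called in either direction, 13.3%, was thus near that of all genes, and the share called lower was above it. The fold change was below 0 for 69 of the 75 genes and for 52.2% of all tested genes. The median log2 fold change was -0.11, a decrease of 7.32%, against -0.01 for all tested genes. In FPKM, 23 genes had every DEM library below every vehicle library, which held for 16.3% of all tested genes, and 1 gene, Ndufa7, had every DEM library above, which held for 17.2%.

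With the replicate number as a block, 25 of the 75 genes were called lower in mock cells, against 21.9% of all tested genes. Without the block, the 10 calls became 3, 6 and 5 when mock vehicle replicate 1, 2 or 3 was left out, and 3, 2 and 4 when mock DEM replicate 1, 2 or 3 was left out. Replicates 1 and 2 carry another series of library codes than replicate 3. Within replicates 1 and 2 alone no gene was called without the block and 20 were called lower with it. Over all genes, 67 were lower in these replicates without the block and 2223 with it. The median log2 difference of the 75 genes was -0.12, -0.06 and -0.14 in the pairs of replicate 1, 2 and 3.

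**Figure D2:**
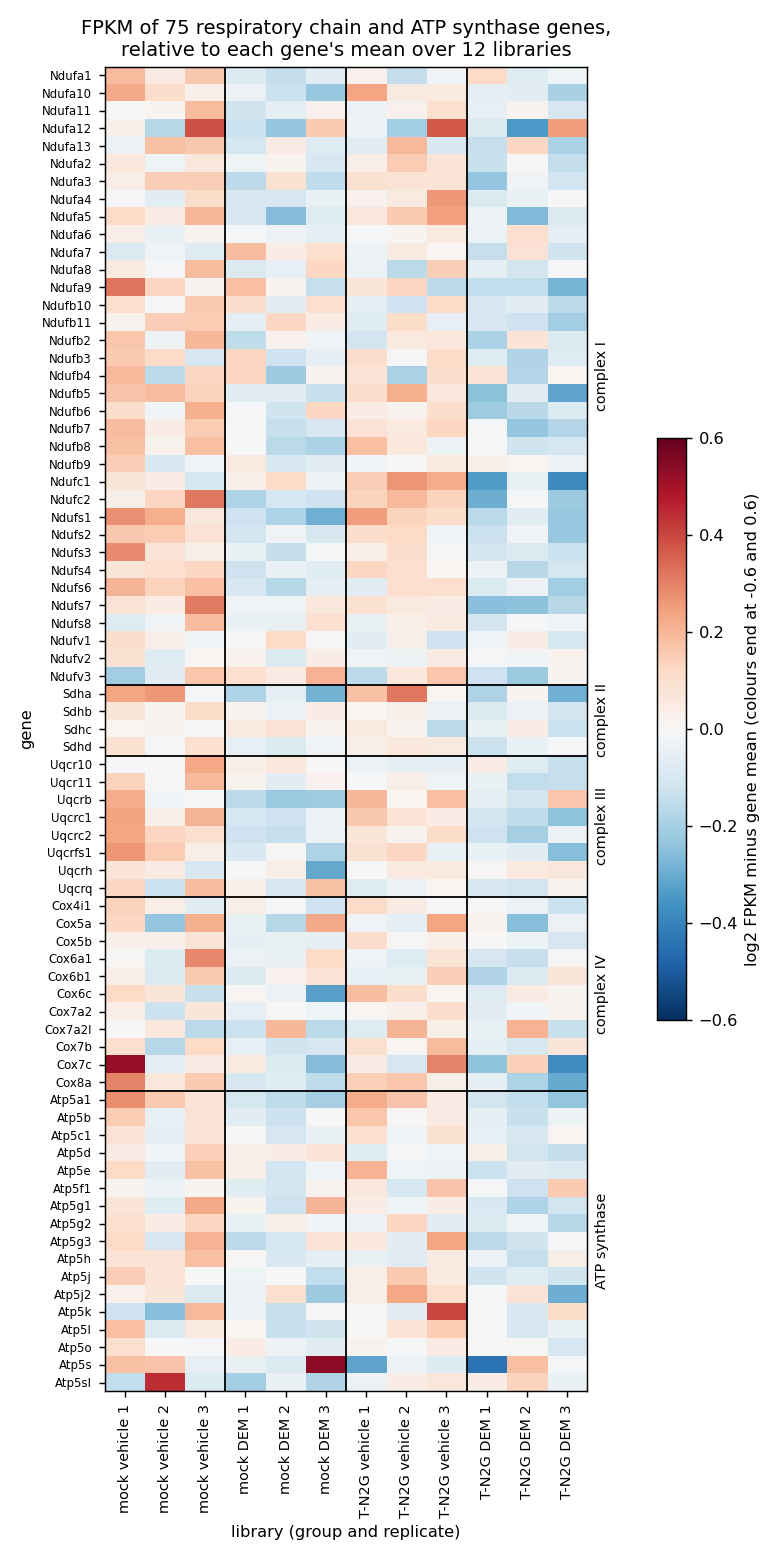
FPKM of the 75 genes in the 12 libraries as log2 difference from each gene's mean (colour), with genes in rows by complex and libraries in columns by group. The 6 DEM columns are mostly below the mean of the gene and the vehicle columns mostly above. Mock vehicle replicate 2 is mixed, and its summed FPKM, 10861, was the lowest of the 6 vehicle libraries. Rows such as Ndufa12 and Cox7c differ between replicates within a group.

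By complex, 6 of the 35 complex I genes were called lower in mock cells, none of 4 of complex II, 2 of 8 of complex III, 1 of 11 of complex IV and 1 of 17 of the ATP synthase. The block gave 14, 2, 4, 1 and 4. The median log2 fold change was -0.14, -0.08, -0.18, -0.07 and -0.10 in that order. Without the block, the share called lower was above the 6.18% of all tested genes in complexes I, III and IV. It was 5.88% in the ATP synthase, near that of all genes, and complex II held no call. With the block, complexes I, II and III were above the 21.9% of all tested genes. The ATP synthase, at 23.5%, was then near that share, and complex IV, at 9.09%, was below it. The 7 nuclear core subunits of complex I, which carry its flavin and iron-sulfur clusters, held 1 call and the 28 other genes counted with it held 5. This split was made after the values were seen.

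Ndufs1, the largest core subunit of complex I and the carrier of several of its iron-sulfur clusters, stood at 38.4, 36.9 and 33.3 FPKM in mock vehicle and at 29.2, 27.9 and 26.0 in mock DEM. The groups did not overlap, and the log2 fold change was -0.40 ± 0.07 (SE, n = 3, adjusted p = 0.00615), a decrease of 24.0%. Atp5a1, the alpha subunit of the catalytic head of the ATP synthase, stood at 342, 314 and 298 FPKM in mock vehicle and at 262, 254 and 245 in mock DEM. It fell by 0.33 ± 0.07 on the log2 scale (SE, n = 3, adjusted p = 0.0120), again without overlap. The calls of these 2 genes remained when any 1 of the 6 libraries was left out, and those of the other 8 genes were lost in 3 to 6 of the 6 cases.

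Both core proteins of complex III, Uqcrc1 and Uqcrc2, were lower under DEM in mock cells. Uqcrc1 had 138, 120 and 134 FPKM in mock vehicle and 109, 107 and 114 in mock DEM, with a log2 fold change of -0.25 ± 0.06 (SE, n = 3, adjusted p = 0.0253). Uqcrc2 had 66.4, 61.6 and 60.3 against 51.7, 51.2 and 55.0, with a log2 fold change of -0.25 ± 0.06 (SE, n = 3, adjusted p = 0.0191). Neither gene had an overlap between the groups. Cox8a, a small subunit of complex IV, had 404, 345 and 366 FPKM in mock vehicle and 308, 312 and 296 in mock DEM, and fell by 0.28 ± 0.08 (SE, n = 3, adjusted p = 0.0303). Ndufs6, a zinc-binding accessory subunit of complex I, had 75.7, 72.4 and 74.4 against 61.5, 58.3 and 63.1, and fell by 0.28 ± 0.08 (SE, n = 3, adjusted p = 0.0323). The remaining 4 called genes, all accessory subunits of complex I, were Ndufc2 at -0.30, Ndufa5 at -0.26, Ndufa10 at -0.25 and Ndufa1 at -0.23, with adjusted p from 0.0401 to 0.0467.

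**Figure D3:**
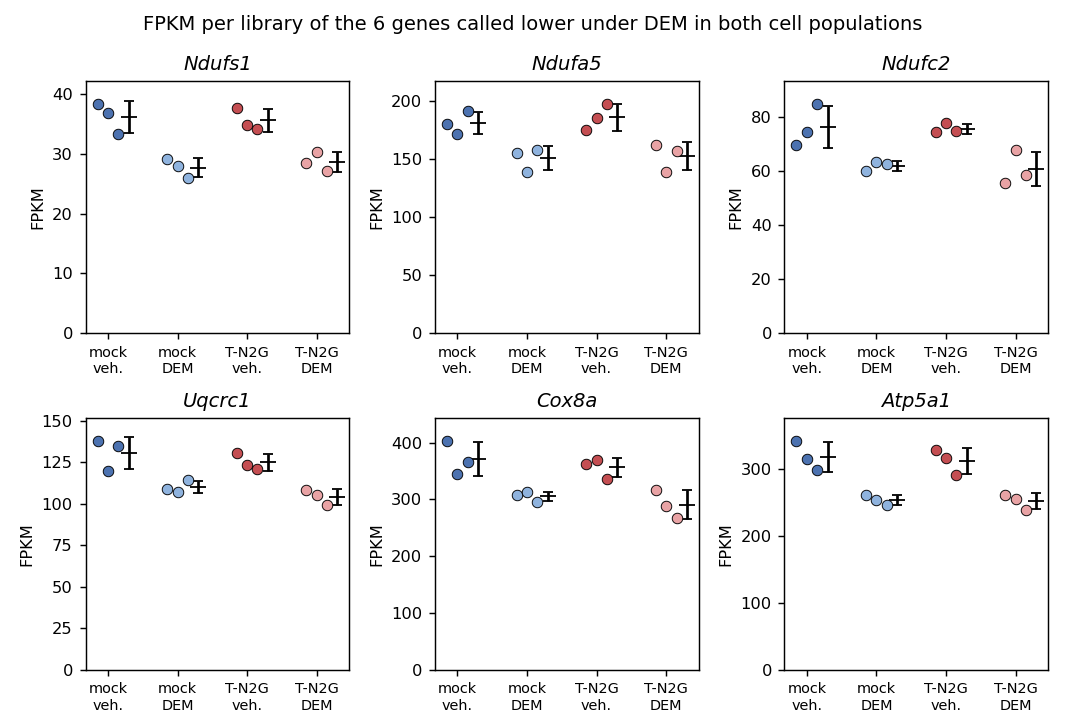
FPKM per library (points, replicates 1 to 3 from left to right) with mean and SD (black marks) of the 6 genes called lower under DEM in both populations; each axis starts at 0. In each gene the 3 DEM libraries of a population lie below its 3 vehicle libraries.

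Among the 4 genes of complex II the values differed. Sdha, the flavoprotein that oxidises succinate, had 65.7, 66.6 and 55.3 FPKM in mock vehicle and 48.9, 53.5 and 45.7 in mock DEM. Each DEM library was below the vehicle library of its own replicate number, and the groups did not overlap. The log2 difference was -0.34 ± 0.11 (SE, n = 3) with an adjusted p of 0.0531 without the block and of 8.45e-06 with it. Sdhd, a membrane anchor, had an adjusted p of 0.190 without and 0.0493 with the block at a log2 difference of -0.11. Sdhb and Sdhc were not called in either fit: mean levels went from 90.5 to 87.1 FPKM for Sdhb and from 55.5 to 57.1 for Sdhc.

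In T-N2G cells the levels come from other libraries than in mock cells, but 1 fit of the 4 groups gave the calls of both populations, so these share its estimate of the spread. The summed FPKM of the 75 genes was 11312, 11138 and 11737 in T-N2G vehicle and 10504, 10297 and 10555 in T-N2G DEM, again without overlap. The mean fell by 8.3%, from 11396 ± 308 to 10452 ± 136 (SD, n = 3). The share of all fragments was 0.652 to 0.674% in vehicle and 0.586 to 0.607% under DEM. Summed fibroblast marker levels were also lower under DEM in this population, at 3083 to 3522 against 3745 to 4201 FPKM, while in mock cells they overlapped (3682 to 4044 against 3986 to 4254). Endothelial markers were at 0.976 to 1.58 FPKM under DEM against 1.98 to 2.86 in T-N2G vehicle, and adipocyte markers at 0.406 to 1.13 against 0.215 to 0.338. Nearly all endothelial fragments were from Kdr and Tek, while Pecam1 had 1 to 2 in T-N2G vehicle and 0 to 5 under DEM. Most adipocyte fragments were from Fabp4, at 2 to 3 a library in T-N2G vehicle and 3 to 10 under DEM. The part of these markers in the result was not tested.

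In T-N2G cells 10 of the 75 genes were called lower under DEM and none higher, against 7.55% called lower, 10.1% higher and 17.6% in either direction among all tested genes. The share of these genes called in either direction, 13.3%, was below that of all genes, and the share called lower was above it. The fold change was below 0 for 71 of the 75 genes and for 50.8% of all tested genes, with a median of -0.13 (a decrease of 8.35%) against 0.00. In FPKM, 30 genes had no overlap between the groups, all of them lower under DEM, which held for 15.7% of all tested genes. With the block, 32 genes were called lower, against 22.2% of all tested genes. Without the block, the 10 calls became 3, 4 and 5 when T-N2G vehicle replicate 1, T-N2G vehicle replicate 2 or T-N2G DEM replicate 3 was left out, and within replicates 1 and 2 alone no gene was called, or 21 with the block. Over all genes, replicates 1 and 2 alone gave 174 lower without the block and 2258 with it. The median log2 difference of the 75 genes was -0.10, -0.11 and -0.14 in the pairs of replicate 1, 2 and 3.

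By complex, 7, 0, 1, 1 and 1 genes of complexes I, II, III and IV and of the ATP synthase were called lower in T-N2G cells, and 18, 1, 3, 3 and 7 with the block. The medians were -0.15, -0.10, -0.12, -0.10 and -0.13 in that order. Without the block, the share called lower was above the 7.55% of all tested genes in complexes I, III and IV. It was below that in the ATP synthase, at 5.88%, and complex II held no call. With the block, every complex was above the 22.2% of all tested genes, complex II with 1 of 4 genes. The 7 nuclear core subunits of complex I held 2 of its calls and the 28 other genes 5.

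Atp5a1 had 328, 317 and 291 FPKM in T-N2G vehicle and 262, 255 and 239 in T-N2G DEM, with a log2 fold change of -0.31 ± 0.07 (SE, n = 3, adjusted p = 0.0119). Ndufs1 had 37.7, 34.8 and 34.2 against 28.4, 30.4 and 27.1, with a log2 fold change of -0.32 ± 0.07 (SE, n = 3, adjusted p = 0.0122). Both genes thus fell without overlap, as in mock cells. Ndufb5, an accessory subunit of the membrane arm of complex I, had 30.5, 32.8 and 29.7 FPKM in vehicle and 23.9, 27.1 and 22.7 under DEM, and fell by 0.34 ± 0.08 (SE, n = 3, adjusted p = 0.0137). The calls of Atp5a1 and Ndufb5 remained when any 1 of the 6 libraries was left out, that of Ndufs1 was lost in 1 case, and those of the other 7 genes in 2 to 5 cases.

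Uqcrc1 had 131, 123 and 121 FPKM in T-N2G vehicle and 108, 105 and 99.0 in T-N2G DEM, and fell by 0.26 ± 0.06 (SE, n = 3, adjusted p = 0.0157). Ndufs7, the core subunit that carries the last iron-sulfur cluster before ubiquinone, had 64.1, 62.8 and 62.0 against 50.5, 50.8 and 53.7, and fell by 0.29 ± 0.07 (SE, n = 3, adjusted p = 0.0213). Cox8a had 363, 369 and 337 against 317, 289 and 266, and fell by 0.29 ± 0.08 (SE, n = 3, adjusted p = 0.0220). In these 3 genes every DEM library was below every vehicle library. The other 4 called genes were Ndufc1 at -0.45, Ndufc2 at -0.32, Ndufa5 at -0.28 and Ndufb7 at -0.23, all accessory subunits of complex I, with adjusted p from 0.0261 to 0.0406. Sdha again passed only with the block: it had 62.9, 69.4 and 56.1 FPKM in vehicle and 49.0, 56.3 and 45.6 under DEM. Replicate 2 was the highest and replicate 3 the lowest of both groups, so T-N2G vehicle replicate 3 and T-N2G DEM replicate 2 overlapped. The log2 difference was -0.32 with an adjusted p of 0.0585 without and 9.68e-06 with the block.

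Both populations called the same 6 genes lower: Atp5a1, Cox8a, Ndufa5, Ndufc2, Ndufs1 and Uqcrc1. They made up 60% of each list of 10, and 14 genes were called in at least 1 population. With the block 17 genes were shared, 68% of the mock list and 53.1% of the T-N2G list. Of all genes called in either direction without the block, 1237 were shared, 71.2% of the mock list and 56.4% of the T-N2G list. The 60% of these genes was near those shares, but it counts decreases only. The overlap of decreases over all genes, and the overlap of all genes with the block, were not counted. The sign of the fold change was negative in both populations for 66 of the 75 genes and positive in both for 1.

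**Figure D4:**
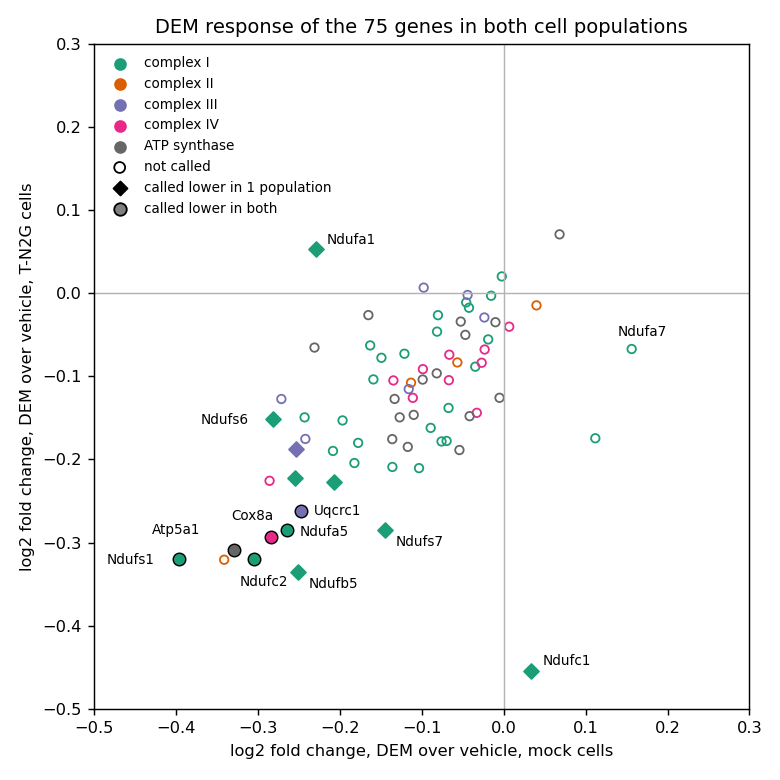
Log2 fold change of DEM over vehicle in mock cells (horizontal axis) and in T-N2G cells (vertical axis) for each of the 75 genes, coloured by complex. Most points lie in the lower left part. The 6 genes called in both populations lie towards its lower left end, as does Sdha, which was called in neither without the block. Ndufa1 and Ndufc1 lie apart from the rest.

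The difference between the DEM effects of the populations was tested directly. None of the 75 genes passed, against 0.433% of all tested genes, and 3 had an unadjusted p below 0.05 (1 higher and 2 lower); DESeq2 called none. Those 3 genes are all counted with complex I. Ndufa1, a small accessory subunit needed for assembly, had 157, 143 and 154 FPKM in mock vehicle, 130, 125 and 132 in mock DEM, 140, 125 and 136 in T-N2G vehicle and 150, 131 and 136 in T-N2G DEM. Its DEM libraries lay below the vehicle libraries in mock cells and overlapped with them in T-N2G cells. The log2 difference of the effects was 0.28 ± 0.10 (SE, n = 3) with an adjusted p of 0.810 without and 0.0415 with the block. Ndufa1 was the only gene of the 75 called with the block, against 2.8% of all tested genes.

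Ndufc1, an accessory subunit of the membrane arm, went the other way: it had 26.7, 26.2 and 23.6 FPKM in mock vehicle, 26.0, 27.5 and 24.9 in mock DEM, 28.2, 30.5 and 29.6 in T-N2G vehicle and 20.2, 24.7 and 19.5 in T-N2G DEM. The mock groups overlapped and the T-N2G groups did not. Its log2 difference of effects was -0.49 ± 0.17 (SE, n = 3, adjusted p = 0.865, or 0.131 with the block), from 75 to 135 fragments per library. Ndufv3, a small subunit of the NADH-oxidising module, had a log2 difference of -0.29 ± 0.12 (SE, n = 3, adjusted p = 1.00, or 0.0864 with the block). The median difference of effects over the 75 genes was -0.01, against 0.00 for all tested genes.

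T-N2G itself was accompanied by little change of these genes. In vehicle, the summed FPKM of the 75 genes differed from mock by -0.99%, and none of the genes passed the test, against 0.313% of all tested genes. An unadjusted p below 0.05 was found for 2 genes, both lower, and DESeq2 called none. The log2 differences ranged from -0.24 to 0.21 with a median of -0.02, against 0.00 for all tested genes. In FPKM, 4 genes were lower and 1 was higher without overlap, against 5.38 and 4.76% of all tested genes. The 3 genes with the smallest p were Ndufa1 at -0.18 ± 0.07 (SE, n = 3, adjusted p = 0.686), Atp5h, a stalk subunit of the ATP synthase, at -0.13 ± 0.06 (SE, n = 3, adjusted p = 0.768), and Ndufc1 at 0.21 ± 0.12 (SE, n = 3, adjusted p = 0.891). With the block Ndufa1 passed (adjusted p = 0.0465), the only call among these genes, against 6.3% of all tested genes.

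Under DEM the summed FPKM differed between T-N2G and mock by -1.8%, and again none of the 75 genes passed, against 3.71% of all tested genes. An unadjusted p below 0.05 was found for 4 genes, 1 higher and 3 lower, and DESeq2 called none. In FPKM, 7 genes were lower and 1 was higher without overlap, against 9.66 and 10.1% of all tested genes. The median log2 difference was -0.03 and the range was -0.28 to 0.21. With the block 6 genes were called, 1 higher and 5 lower, against 19.6% of all tested genes.

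Ndufs7 had 59.4, 59.1 and 63.2 FPKM in mock DEM and 50.5, 50.8 and 53.7 in T-N2G DEM, without overlap. Its log2 difference was -0.23 ± 0.07 (SE, n = 3, adjusted p = 0.141, or 0.0143 with the block). Ndufb11, an accessory subunit of the membrane arm, was at -0.18 (adjusted p = 0.271, or 0.0263 with the block). Uqcrb, a ubiquinone-binding subunit of complex III, was at 0.21 (adjusted p = 0.282, or 0.0303 with the block). The 3 other genes called with the block were Ndufa9, Ndufv3 and Atp5g1, all lower and named after their values were seen. The populations also differ in genes outside this set: 4 Y-linked genes summed to 4.39 to 5.17 FPKM in mock vehicle and 7.20 to 7.84 in T-N2G vehicle. The part of such differences between the populations in these results was not tested.

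**Figure D5:**
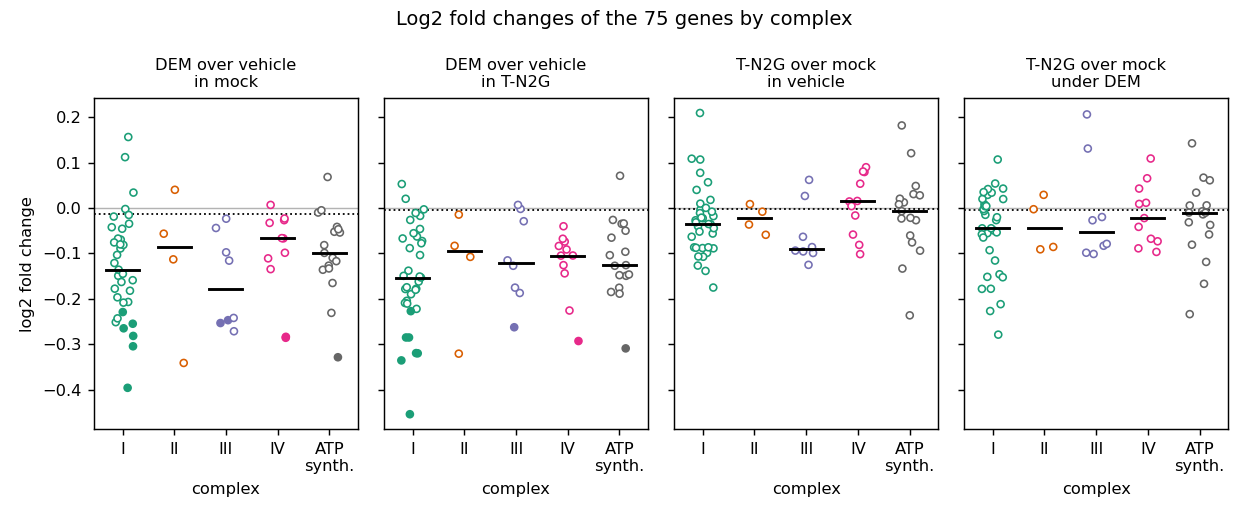
Log2 fold change of each of the 75 genes by complex in the 4 comparisons (points, filled where called), with the median of the complex (black line) and of all tested genes (dotted line). Medians lie below 0 in every complex under DEM in both populations, and near 0 in most complexes between T-N2G and mock.

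Other genes of mitochondrial energy metabolism were counted in lists. The first list held 17 genes of the tricarboxylic acid cycle, which supplies NADH and succinate to the chain, and of pyruvate dehydrogenase. Of these, 4 were lower under DEM in each population and none was higher (10 and 11 lower and 0 and 1 higher with the block). The share called lower was 23.5% in each population, against 6.18 and 7.55% of all tested genes in mock and T-N2G cells, and 58.8 and 64.7% with the block, against 21.9 and 22.2%. With any 1 library of the groups compared left out and no block, 2 to 3 were lower in mock cells and 1 to 4 in T-N2G cells. Suclg2, a subunit of succinyl-CoA ligase, fell by 0.32 (adjusted p = 0.0104) in mock and by 0.30 (adjusted p = 0.0103) in T-N2G cells. Dlst, of the oxoglutarate dehydrogenase complex, fell by 0.26 (adjusted p = 0.0189) in T-N2G cells. Over this list the median was -0.13 in mock and -0.14 in T-N2G cells on the log2 scale, with 17 and 15 of 17 genes below 0.

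The next list held 18 genes, inner membrane carriers and porins together with the protein import genes Timm23, Tomm20 and Tomm40. Of these, 2 were lower and none higher under DEM in each population (8 and 5 lower and 1 higher in each with the block). The share called lower was 11.1% in each, against 6.18 and 7.55% of all tested genes, and 44.4 and 27.8% with the block, against 21.9 and 22.2%; that of T-N2G cells with the block was thus near that of all genes. They were the same genes: Slc25a4, the ADP/ATP carrier that exports the product of the ATP synthase, and Slc25a13, an aspartate/glutamate carrier. Slc25a4 had 471, 431 and 440 FPKM in mock vehicle and 376, 373 and 364 in mock DEM, and 467, 436 and 433 against 360, 362 and 351 in T-N2G cells. The groups were apart in both populations, with log2 fold changes of -0.27 (adjusted p = 0.00799) and -0.32 (adjusted p = 0.00253). Slc25a13 fell by 0.50 (adjusted p = 0.00171) and 0.47 (adjusted p = 0.00113). Slc25a11, the oxoglutarate carrier, was lower in T-N2G than in mock cells under DEM, by 0.33 on the log2 scale (adjusted p = 0.0327).

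Of 49 assembly factors, 2 were lower under DEM in mock cells and 3 in T-N2G cells, and none was higher; with the block 4 were higher and 4 lower in mock cells, and 2 higher and 4 lower in T-N2G cells. The shares called lower, 4.08 and 6.12%, were below those of all tested genes, 6.18 and 7.55%. With the block 8.16% were lower in each population, against 21.9 and 22.2%, and 8.16 and 4.08% were higher, against 20.9 and 22.8%. Without the block and with 1 library left out, the counts were 1 to 2 lower in mock cells, and 2 to 3 lower with up to 2 higher in T-N2G cells. The median of the list was -0.04 in mock and -0.07 in T-N2G cells. Atpaf1, which helps to assemble the catalytic head of the ATP synthase that Atp5a1 is part of, had 8.65, 10.9 and 9.70 FPKM in mock vehicle and 5.24, 6.47 and 6.81 in mock DEM. In T-N2G cells it had 9.15, 9.13 and 9.34 against 4.95, 6.56 and 5.72. The groups were apart in both, with log2 fold changes of -0.66 (adjusted p = 0.00701) and -0.68 (adjusted p = 0.00455). Acad9, a complex I assembly factor, fell by 0.32 (adjusted p = 0.0265) in mock cells, and Ndufaf3, of the same function, by 0.61 (adjusted p = 0.0117) in T-N2G cells.

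Of 13 genes of coenzyme Q synthesis, 1 was lower under DEM in mock cells and 2 in T-N2G cells, and none was higher (3 lower in each with the block, and 1 to 2 lower in each without the block when 1 library was left out). The share called lower was 7.69% in mock cells, near the 6.18% of all tested genes, and 15.4% in T-N2G cells, against 7.55%. With the block it was 23.1% in each, near the 21.9 and 22.2% of all tested genes. Coq4 fell by 0.72 (adjusted p = 0.00347) in mock and by 0.43 (adjusted p = 0.0309) in T-N2G cells, and Coq6, a hydroxylase of the pathway, by 0.47 (adjusted p = 0.00404) in T-N2G cells. Under DEM, Coq7 was higher in T-N2G cells than in the mock population, by 0.48 on the log2 scale (adjusted p = 0.0317). The medians of the list were -0.11 in mock and 0.06 in T-N2G cells.

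Of 16 regulators of mitochondrial biogenesis, 5 were higher and none lower under DEM in mock cells, and 4 were higher and 2 lower in T-N2G cells (7 higher and 2 lower, and 7 higher and 3 lower, with the block). The share called higher was 31.2% in mock and 25.0% in T-N2G cells, against 7.76 and 10.1% of all tested genes, and 43.8% in each with the block, against 20.9 and 22.8%. The share called lower in T-N2G cells was 12.5%, against 7.55%; with the block, 12.5 and 18.8% were lower, against 21.9 and 22.2%. Without the block and with 1 library left out, 1 to 3 were higher in mock cells and 2 to 3 in T-N2G cells, with at most 1 lower. The calls of Gabpa remained in each of these fits. The list also holds the mitochondrial proteases Lonp1 and Clpp. The medians of the list, 0.10 and 0.13, had the opposite sign to those of the subunit genes, but its genes went both ways. In mock cells 11 were above 0 and 5 below, and in T-N2G cells 9 were above and 7 below. The genes named here have the smallest adjusted p, and the 2 called lower in T-N2G cells are not among them. Gabpa had 27.1, 27.5 and 27.5 FPKM in mock vehicle and 35.0, 35.7 and 34.8 in mock DEM, and 29.1, 28.2 and 31.9 against 37.4, 38.9 and 41.9 in T-N2G cells. It rose by 0.36 (adjusted p = 0.00281) and 0.41 (adjusted p = 0.000864) on the log2 scale without overlap in either population. Polg, the mitochondrial DNA polymerase, rose by 0.30 (adjusted p = 0.0130) in mock cells, and Tfb1m, a ribosomal RNA methyltransferase, by 0.45 (adjusted p = 0.0134) in T-N2G cells. Ppargc1a and Ppargc1b, the coactivators best known in this role, were under the filter on low counts, with at most 5 and 14 fragments.

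Of 15 other subunits and electron carriers, none was called under DEM in mock cells (against 7.76% of all tested genes higher and 6.18% lower), and 1 was higher and 1 lower in T-N2G cells (1 higher and 4 lower, and 3 higher and 4 lower, with the block). In T-N2G cells 6.67% of the list was thus higher and 6.67% lower, against 10.1 and 7.55% of all tested genes. With the block 6.67 and 20% were higher in mock and T-N2G cells, against 20.9 and 22.8%, and 26.7% were lower in each, against 21.9 and 22.2%. Without the block and with 1 library left out, up to 1 was lower in each population and the call of Sqrdl in T-N2G cells remained in each fit. Sqrdl, which oxidises hydrogen sulfide and reduces ubiquinone, had 4.63, 4.77 and 6.25 FPKM in mock vehicle, 3.39, 4.74 and 4.27 in mock DEM, 6.40, 6.22 and 6.25 in T-N2G vehicle and 10.9, 12.5 and 11.7 in T-N2G DEM. The T-N2G DEM libraries were above all others. Under DEM, Sqrdl exceeded its mock level in T-N2G cells by 1.51 ± 0.14 on the log2 scale (SE, n = 3, adjusted p = 3.84e-05) and rose with DEM in T-N2G cells by 0.91 ± 0.14 (SE, n = 3, adjusted p = 0.00114). The difference of its DEM effects was 1.24 ± 0.20 (SE, n = 3, adjusted p = 0.0176, or 8.97e-05 with the block), and this call was lost without 6 of the 12 libraries in turn. Dhodh, which passes electrons from pyrimidine synthesis to ubiquinone, fell by 0.36 (adjusted p = 0.0329) under DEM in T-N2G cells. Between T-N2G and mock cells in vehicle, no gene of these lists was called without the block, and 0 to 2 genes a list had an unadjusted p below 0.05. With the block 1 assembly factor, 1 coenzyme Q gene and 1 gene of the tricarboxylic acid cycle list were lower.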

How the data were processed

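Expression was analysed in 12 libraries: 2 cell populations, 2 treatments, 3 replicates. Per the submitters' processing notes, bcl2fastq 2.16.0.10, TopHat2 2.0.8b, Cuffdiff 2.1.1 and the mm9 build were used. Annotation and strand setting are not given in the sources used here, so genes are given by symbol. The deposited table holds estimated counts of fragments per gene, made by the authors and not normalized (98.3% of values whole), and FPKM, which the authors scaled by length and library. Estimated counts were rounded; all values of the 75 genes were already whole. Levels are FPKM. Log2 fold changes come from the counts: edgeR 4.0.16 (TMM, filterByExpr, quasi-likelihood test, Benjamini-Hochberg over 12469 genes, adjusted p below 0.05), 1 fit of 4 groups without a block, in R 4.3.3. The code was tested on simulated data. Alternatives for the 5 contrasts were the replicate block, RLE factors, DESeq2 1.42.0, no filter, limma 3.58.1 on log2(FPKM + 1) and log2(FPKM + 0.1), each library left out, and replicates 1 and 2 only with and without the block. The block with each library left out was added after the data were seen.

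Replicate numbers come from the sample titles. Deviations from group means correlated at 0.36 to 0.63 in all 18 pairs of libraries with the same number and at -0.42 to 0.00 in the 36 pairs with different numbers. Deviations within a group sum to 0, so values above 0 for the same number force values below 0 on average for different numbers. From the same-number values, the numbers were taken to pair the libraries in the fits with the block. The main fit leaves this pairing out, so its SE and adjusted p include the spread between replicate numbers. The common coefficient of variation between libraries was 0.110 in the main fit and 0.0428 with the block.

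Members and lists were chosen with earlier results of these data known. Genes were named by these rules: extremes of level and of library ratio per complex, all of complex II, paralogue sets, genes beside the minimum, up to 6 calls per contrast and direction or the 3 smallest p, and up to 2 calls per list and contrast; 1 gene these rules name is not reported here. Ndufc2, Ndufa5, Ndufa10 and Ndufb7, the genes called with the block only, Ndufa7, Lum and the regulators under the filter were named after their values were seen. So were the markers Kdr, Tek, Pecam1 and Fabp4. Protein sequences are not printed.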

Additional observations from a re-analysis of the deposited data

How the results depend on the processing

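The median log2 fold change of the 75 genes kept its sign under every alternative run in 4 comparisons: -0.14 to -0.08 for DEM in mock cells, -0.14 to -0.10 for DEM in T-N2G cells, -0.05 to -0.01 for T-N2G in vehicle and -0.06 to -0.01 for T-N2G under DEM. For the difference of DEM effects it went from -0.04 to 0.01. In the pairs of replicate 1, 2 and 3 the median log2 difference was -0.06, 0.04 and -0.04 for T-N2G in vehicle, so its sign differed between pairs. For T-N2G under DEM the pairs were at -0.03, -0.0004 and -0.06. Counts of called genes moved more. For DEM in mock cells they were 25 with the replicate block, 16 with DESeq2, 4 without the filter, 0 with replicates 1 and 2 only and 20 with those and the block. Leaving out 1 library gave 2 to 6, and 21, 31, 22, 20, 23 and 19 with the block (mock vehicle replicates 1 to 3, then mock DEM). For DEM in T-N2G cells they were 32 with the replicate block, 0 with replicates 1 and 2 only and 21 with those and the block, and 3 to 9 without 1 library, with the block 27, 24, 25, 24, 27 and 28 (vehicle, then DEM). For T-N2G over mock under DEM the counts were 0 without 1 library, 6 with the block, 2 with replicates 1 and 2 and the block, and 2, 6, 3, 6, 6 and 1 with the block and 1 library left out (mock DEM, then T-N2G DEM). For T-N2G over mock in vehicle the block gave 1 and for the difference of DEM effects it gave 1. With the block and 1 library left out these became 0, and 0 to 1. The cause of these moves was not tested. Over all tested genes the block gave 785, 2445, 5339, 5615 and 349 calls for T-N2G in vehicle, T-N2G under DEM, DEM in mock, DEM in T-N2G and the difference, against 39, 463, 1737, 2195 and 54. Replicates 1 and 2 alone gave 6, 139, 124, 479 and 6, and 295, 1581, 4362, 4640 and 195 with the block. For DEM in mock cells, DESeq2 called 960 of all genes lower and the fit without the filter 600. Calls over all genes with 1 library left out are not given here. Of the fold changes of named genes under the alternatives, 1043 kept their direction and side of the threshold, 16 passed it newly, 149 no longer passed it and 0 reversed. The decreases called without the block lay between 14.6 and 27.0%, and with 3 libraries a group no smaller change of these genes was called in that fit.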

Other observations

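Some of the genes varied more with the replicate number than with the group. The replicate number took 91.0% of the sum of squares of log2(FPKM + 1) for Ndufb4, 89.8% for Ndufa12 and 77.7% for Cox7a2l, against a median of 25.3% over the 75 genes and 28.8% over all tested genes. Ndufa12, an accessory subunit of complex I, had 336, 291 and 430 FPKM in mock vehicle, 301, 279 and 366 in mock DEM, 322, 285 and 423 in T-N2G vehicle and 309, 259 and 391 in T-N2G DEM. Replicate 3 was the highest and replicate 2 the lowest in all 4 groups. Cox7a2l, which acts in supercomplex assembly, was highest in replicate 2 of each group, at 79.9, 87.7, 88.0 and 88.3 FPKM. DEM took 85.5% of the sum of squares for Atp5a1, 84.8% for Ndufs1 and 81.2% for Ndufs4, against medians of 31.1% over the 75 genes and 24.5% over all tested genes. Ndufs4 was called under DEM in neither population, with or without the block. The genes of this paragraph were named after their values were seen.

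Most of these genes are short. The 74 with a transcript length in the reference annotation had a median of 671 bases, and 56 of them were at most 1000 bases long. The other 1940 tested genes of at most 1000 bases had a median log2 fold change of -0.02 under DEM in mock cells and of -0.01 in T-N2G cells, against -0.11 and -0.13 for the 75 genes. This length class was chosen after the values were seen and was not matched for level, and the part of length in the result was not tested.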
